A study of Mus musculus with 4 samples.

Results

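The genes described here are 39 transcripts of macrophages and other leukocytes, read in libraries made from sorted alveolar type II (AT2) cells of the mouse lung. AT2 cells are the surfactant-producing cells of the alveolar epithelium, whereas these transcripts are known from leukocytes, another lineage than the one the sort aimed at. Several of them are also made by other cells, so that not all of their counts need come from leukocytes. The members were chosen by gene symbol from a list of leukocyte genes, and make up 39 of the 40092 genes in the count table. They were grouped by role into pan-leukocyte genes, receptors and adaptors that signal through an ITAM (a tyrosine-based activation motif), the C1q complement chains, macrophage surface proteins, lysosomal proteases, alveolar macrophage genes, genes of lipid handling and injury, lymphocyte genes and granulocyte genes.

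Bulk RNA-seq was made from GFP+ cells sorted on day 14 after bleomycin, with 2 control libraries (Ctrl) and 2 knockout libraries (A5-CKO). Ctrl mice were Alkbh5flox/+; Sftpc-CreERT2; Rosa26-mTmG, and A5-CKO mice were Alkbh5flox/flox; Sftpc-CreERT2; Rosa26-mTmG, so that the controls carried 1 floxed allele and both groups carried the tamoxifen-inducible Cre, the reporter, tamoxifen and bleomycin. Cre is driven by the promoter of Sftpc, which is active in AT2 cells, and the reporter turns recombined cells and their descendants green. The labels give neither the age of the mice nor whether a library came from 1 mouse or a pool, so that each p measures only the spread between these libraries.

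Leukocytes carry Ptprc (CD45) on their surface and depend on lineage factors such as Spi1 (PU.1), which is required for myeloid cells. The lung holds resident alveolar macrophages, which live in the airspace and clear surfactant, interstitial macrophages in the tissue, and, after injury, macrophages that arise from recruited monocytes. Spp1, Gpnmb, Trem2 and Arg1 are known from monocyte-derived macrophages of the injured lung, and neutrophils are known for the calcium-binding proteins S100a8 and S100a9. Several members are also made outside leukocytes, such as Apoe, the cathepsin Ctss, the legumain gene Lgmn and the lipid chaperone gene Fabp4, which capillary endothelium expresses. In bulk libraries, fewer cells of a type and less RNA per cell cannot be told apart.

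The libraries held 18144865 to 20811757 counts, and levels are given as normalized counts (CPM, scaled to library size with TMM factors) unless another unit is named. Where 4 values are listed for a gene or group, their order is Ctrl 1, Ctrl 2, A5-CKO 1, A5-CKO 2. AT2 genes were abundant in all 4 libraries. Sftpc, the surfactant protein gene whose promoter drives the Cre, had 15477, 16370, 10268 and 7856 normalized counts. The targeted gene, Alkbh5, had 81.7, 152, 19.3 and 36.6, lower in both A5-CKO libraries (adjusted p = 0.0224 in DESeq2 and 0.528 in edgeR). The levels of most members set Ctrl 1 and A5-CKO 2 apart from the other libraries, and results are therefore also given with each library left out.

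All members together had 8929, 3508, 2250 and 8467 summed normalized counts, or 0.832%, 0.301%, 0.249% and 0.952% of all counts. The sum in Ctrl 1 was 2.54 times that in Ctrl 2, and the sum in A5-CKO 2 was 3.76 times that in A5-CKO 1. Ctrl averaged 6218 ± 3833 and A5-CKO 5359 ± 4396 (SD, n = 2 each), so that the genotypes differed by less than the libraries of one genotype did. Without 8 members that other cells also express (Apoe, Ctss, Lgmn, Cd14, Cd68, Plet1, Fabp4 and Spp1), the sums were 4285, 1311, 867 and 4104.

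The order of the libraries was shared by most members. In 29 of the 37 members with enough counts to be tested, Ctrl 1 and A5-CKO 2 were the highest pair of libraries, an order found in 15.6% of all 16661 genes tested. In 22 of the 37, Ctrl 1 exceeded Ctrl 2 and A5-CKO 2 exceeded A5-CKO 1 by more than 2-fold each, against 4.97% of all genes, and in 12 both ratios were above 4, against 1.60%. The median ratio of Ctrl 1 to Ctrl 2 was 3.37 over the tested members and 1.01 over all genes, and that of A5-CKO 2 to A5-CKO 1 was 3.95 and 0.963. A5-CKO 2 was the highest library for 21 of the 37 members (20.2% of all genes), Ctrl 1 for 15 (23.6%) and A5-CKO 1 for 1 (27.8%). The exceptions to the shared order were Ptprc, Siglecf, Apoe, Cd3e, Cd79a, S100a8, S100a9 and Csf3r.

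**Figure D1:**
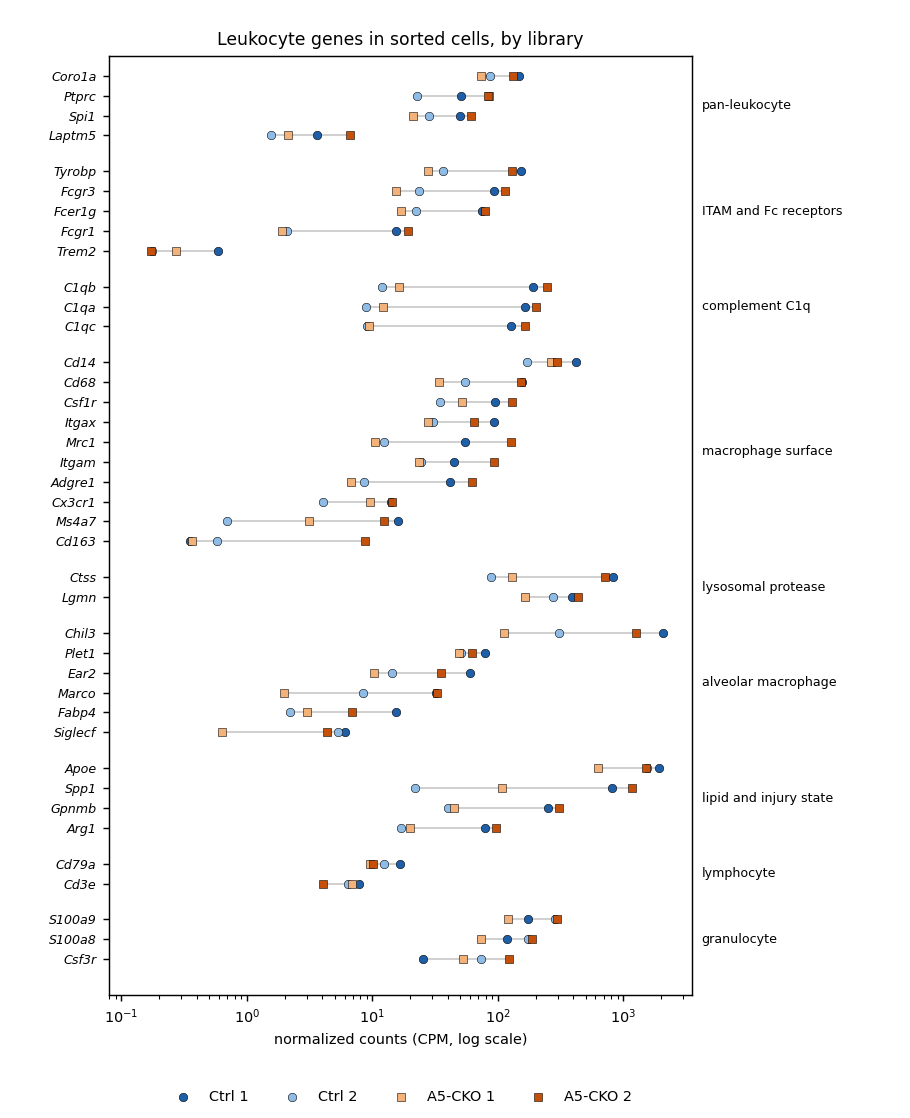
Normalized counts (CPM, logarithmic axis) of all 39 members in the 4 libraries, grouped by role, with circles for Ctrl and squares for A5-CKO and the darker shade for Ctrl 1 and A5-CKO 2. The count of 0 for Trem2 in Ctrl 2 is drawn at the level of 3 counts. For most macrophage genes the dark symbols lie to the right of the pale ones, as in C1qa at 164 and 203 against 8.90 and 12.2.

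The C1q chains showed the shared order most evenly. C1qa, C1qb and C1qc encode the 3 chains of the first complement component, are made by tissue macrophages and lie side by side on chromosome 4 (C1qb at 136880126 to 136886200, C1qc at 136889801 to 136892936 and C1qa at 136895916 to 136898844, GRCm38.p6). C1qa had 164, 8.90, 12.2 and 203 normalized counts. C1qb had 191, 11.9, 16.4 and 247 and C1qc had 127, 9.02, 9.33 and 165. Each chain was at least 14.1 times higher in Ctrl 1 than in Ctrl 2 and at least 15.1 times higher in A5-CKO 2 than in A5-CKO 1. The genotypes overlapped for all 3 chains, with log2 fold changes (A5-CKO over Ctrl) of 0.31 to 0.38 and standard errors of 1.36 to 1.41. The chains kept similar proportions in every library while their sum went from 512 to 14380 counts. C1qb was 39.6%, 39.8%, 43.2% and 40.1% of the C1q counts. C1qa was 34.0%, 29.9%, 32.1% and 32.9%, and C1qc 26.4%, 30.3%, 24.6% and 26.9%, so that C1qc exceeded C1qa in Ctrl 2 only.

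Spp1, which encodes the secreted matrix protein osteopontin, had the widest range of all members. It had 818 normalized counts in Ctrl 1 and 21.99 in Ctrl 2, a ratio of 37.2. The A5-CKO libraries had 107 and 1172, a ratio of 10.9. Gpnmb, a transmembrane glycoprotein of lipid-laden macrophages, had 251, 39.8, 44.6 and 309. Arg1, the enzyme that splits arginine, had 78.7, 16.9, 20.01 and 96.8. All 3 were highest in A5-CKO 2 and next highest in Ctrl 1, and their log2 fold changes between genotypes were 0.61 ± 1.48, 0.28 ± 1.01 and 0.29 ± 0.86 (standard error). Apoe, a lipid carrier, departed from this order, with 1936, 1535, 631 and 1525. Its Ctrl libraries both lay above its A5-CKO libraries, by a margin of only 1535 against 1525 between Ctrl 2 and A5-CKO 2, and the log2 fold change was -0.69 ± 0.50 (adjusted p = 0.638 in edgeR).

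PU.1, the product of the member Spi1, is a known regulator of myeloid genes. The members' promoters were searched for its core motif, GAGGAA, on both strands, in the 250 bases before each transcript start in the RefSeq promoter set (GRCm38.p6). Promoters were found for 31 of the 39 members. GAGGAA was in 21 of their 39 promoters (53.85%), against 23.25% of 32851 promoters of the same length. The longer GAGGAAGT, which contains the core, was in the promoters of C1qc, Spp1 and S100a8 and in 2.44% of all promoters. These promoter stretches are shown because they hold GAGGAAGT. The first 2 belong to members with the shared order of libraries and the third to a member with another order. Capitals mark GAGGAAGT or its reverse complement. Each stretch was cut at the first base of an annotated GENCODE M21 exon. This left out the last 151 bases before the start in C1qc and the last 93 in S100a8.
C1qc, chr4:136893066-136893164, minus strand: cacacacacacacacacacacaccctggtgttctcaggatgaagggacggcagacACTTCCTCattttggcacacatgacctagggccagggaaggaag
Spp1, chr5:104434861-104435110, plus strand: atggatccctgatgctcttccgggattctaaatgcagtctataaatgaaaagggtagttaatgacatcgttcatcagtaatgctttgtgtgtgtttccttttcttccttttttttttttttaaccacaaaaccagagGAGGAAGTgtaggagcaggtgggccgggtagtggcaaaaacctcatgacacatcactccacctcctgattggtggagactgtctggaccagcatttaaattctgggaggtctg
S100a8, chr3:90668821-90668977, plus strand: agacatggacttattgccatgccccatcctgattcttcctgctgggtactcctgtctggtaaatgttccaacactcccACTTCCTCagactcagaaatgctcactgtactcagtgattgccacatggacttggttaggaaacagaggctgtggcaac
The motif stands 195 bases before the RefSeq start in C1qc, 113 in Spp1 and 172 in S100a8. It occurs both in genes with the shared library order and in S100a8, which did not have it, and a match of letters is a description and not a binding site.

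The 4 ITAM adaptors and Fc receptors that could be tested had the same highest pair of libraries as C1q, with smaller ratios. All 4 were lowest in A5-CKO 1, whereas the C1q chains were lowest in Ctrl 2. Tyrobp, the adaptor DAP12 that signals for many myeloid receptors, had 153, 36.4, 27.9 and 130 normalized counts. Fcer1g, the common gamma chain of Fc receptors, had 75.3, 22.3, 17.1 and 78.5. Fcgr3, a low-affinity IgG receptor, had 93.7, 23.6, 15.6 and 113, and Fcgr1, the high-affinity one, had 15.5, 2.09, 1.90 and 19.1. For these 4 genes the 2 high libraries, 1 of each genotype, stood at least 3.37 times above the other library of their genotype, and the log2 fold changes between genotypes lay between -0.26 and 0.26. Trem2, a lipid-sensing receptor that signals through Tyrobp, was at 10, 0, 6 and 4 counts and could not be tested. Per kilobase of the longest GENCODE transcript, the mean level of Trem2 was 0.0540 normalized counts against 145 for Tyrobp.

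Among macrophage surface proteins, 9 of 10 could be tested and all 9 were highest in Ctrl 1 and A5-CKO 2. Csf1r, the receptor for the macrophage growth factor Csf1, had 94.4, 34.5, 51.6 and 130 normalized counts. Adgre1, which encodes the macrophage antigen F4/80, had 41.9, 8.61, 6.79 and 62.8. Mrc1, the mannose receptor CD206, had 54.5, 12.3, 10.5 and 127, and with a log2 fold change of 1.04 ± 1.08 it had the largest genotype difference among those tested, less than its standard error. Cd68, a lysosomal membrane protein, had 157, 54.6, 34.1 and 153. Ms4a7 had 16.0 in Ctrl 1 and 0.698 in Ctrl 2, from 271 and 12 counts, and the A5-CKO libraries had 3.12 and 12.5. The integrin chains Itgam (CD11b) and Itgax (CD11c) differed in which high library led. Itgam had 44.9, 24.3, 23.5 and 92.9, highest in A5-CKO 2, and Itgax had 93.3, 30.3, 27.9 and 64.2, highest in Ctrl 1.

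Cd14, the co-receptor for bacterial lipopolysaccharide, varied less, at 419, 170, 265 and 294 normalized counts, and the A5-CKO libraries differed only 1.11-fold. Cx3cr1, the fractalkine receptor, had 14.1, 4.07, 9.51 and 14.4. Cd163, the haemoglobin scavenger receptor of tissue macrophages, was high in 1 library only, with 6, 10, 8 and 204 counts, and it failed the filter on low counts. In DESeq2, which kept it, its adjusted p was 0.235. An overlapping non-coding gene, Gm52877, had 0, 8, 0 and 80 counts, and since no strand setting is stated for the counting, reads of both genes cannot be told apart.

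The lysosomal proteases were among the most abundant members. Ctss, cathepsin S, which trims the MHC class II invariant chain, had 833, 87.8, 130 and 718 normalized counts. Lgmn, an asparaginyl endopeptidase, had 387, 274, 164 and 432. Ctss differed 9.48-fold between the Ctrl libraries and Lgmn 1.41-fold, so that genes of one compartment shared the order and not the size of the gap. Their log2 fold changes between genotypes were -0.12 ± 1.07 and -0.15 ± 0.50.

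Alveolar macrophage genes had a negative log2 fold change in all 6 cases, where it was positive in 49.1% of all genes, but none of the 6 passed the test and the count rested on Ctrl 1, since without that library 5 of the 6 were positive. Chil3, the chitinase-like protein Ym1, had 2084, 309, 112 and 1254 normalized counts. Ear2, an eosinophil-associated ribonuclease gene, had 59.8, 14.4, 10.2 and 35.2, and Fabp4 had 15.4, 2.21, 2.99 and 6.88. Marco, a scavenger receptor, had 32.2, 8.49, 1.99 and 32.9, nearly equal in the high libraries. Siglecf, the sialic acid receptor that marks alveolar macrophages and eosinophils, had 6.09, 5.29, 0.634 and 4.32. Both Ctrl libraries of Siglecf lay above both A5-CKO libraries, and its log2 fold change of -1.20 ± 0.87 moved to -0.41 without A5-CKO 1, the library with 14 counts. Plet1, at 79.1, 51.3, 49.3 and 62.4, varied least of all 39 members, 1.61-fold from lowest to highest. The overlapping gene Plet1os had 510, 352, 454 and 614 counts, and reads of both genes cannot be told apart. The log2 fold changes of the 6 genes had a median of -0.76, against -0.02 over all genes. Without Ctrl 1 the median was 0.93, with Siglecf alone negative at -1.01, and without A5-CKO 2 it was -2.54. Without A5-CKO 1, the median was -0.08 and 2 of the 6 were positive. With total counts in place of TMM factors, Marco and Plet1 turned positive.

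Pan-leukocyte genes held the single member with an unadjusted p under 0.05. Ptprc (chromosome 1, 138062859 to 138175756, GRCm38.p6), the phosphatase CD45, had 50.9, 22.5, 84.3 and 82.8 normalized counts. Ctrl averaged 36.7 ± 20.04 and A5-CKO 83.5 ± 1.06 (SD, n = 2 each), the groups did not overlap, and A5-CKO 1, which was low for most macrophage genes, was as high as A5-CKO 2. The genotype difference was 1.19 ± 0.42 on the log2 scale, and the edgeR model fitted across all genes gave an unadjusted p of 0.0260 and a Benjamini-Hochberg adjusted p of 0.528. This difference was 0.67 without Ctrl 2 and 1.95 without Ctrl 1. The other pan-leukocyte genes overlapped between genotypes. Coro1a, an actin-binding protein of leukocytes, had 147, 86.0, 73.3 and 133, and Spi1 had 50.1, 28.5, 21.1 and 60.6. Laptm5, a lysosomal membrane protein of blood cells, had 27 to 155 counts in a library and a mean of 1.34 normalized counts per kilobase, against 62.9 for Coro1a.

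**Figure D2:**
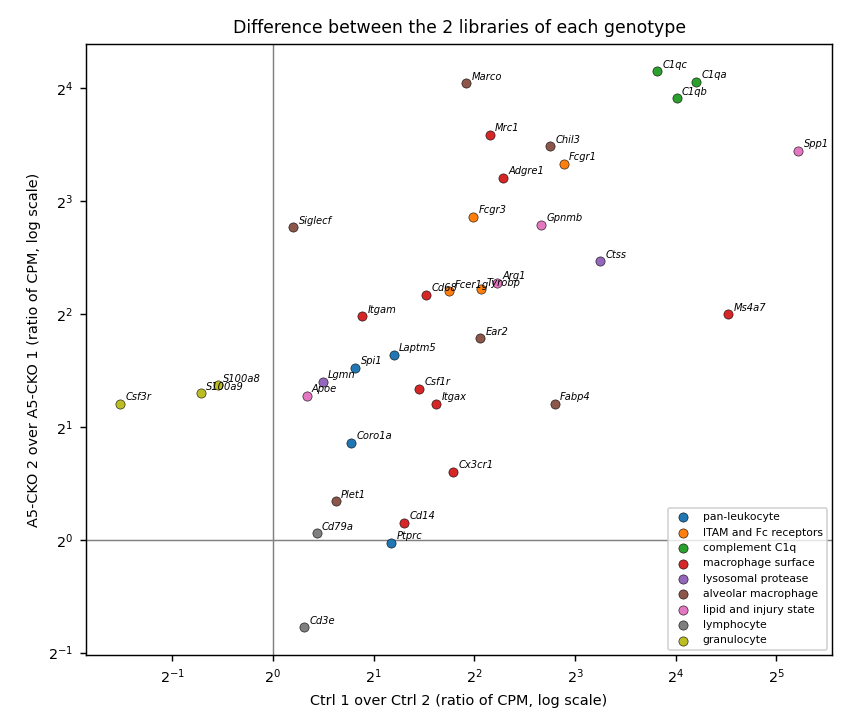
Ratio of normalized counts between Ctrl 1 and Ctrl 2 (x axis) and between A5-CKO 2 and A5-CKO 1 (y axis), both on log scales, for the 37 members tested, coloured by role. The C1q chains lie at the upper right at ratios of 14.1 to 18.4, Ptprc lies at 2.26 and 0.982, and the granulocyte genes are the only members to the left of a Ctrl ratio of 1.

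Granulocyte genes followed another order. S100a8 and S100a9, which form calprotectin, lie together on chromosome 3 (90669071 to 90670034 and 90692630 to 90695721, GRCm38.p6). S100a8 had 118, 173, 72.8 and 188 normalized counts, and S100a9 had 173, 285, 120 and 295. Csf3r, the receptor for the granulocyte growth factor G-CSF, had 25.5, 73.3, 53.0 and 122. All 3 were highest in A5-CKO 2 and next highest in Ctrl 2, and Ctrl 1 was 0.348 to 0.683 times Ctrl 2. The ratio of C1q counts to S100a8 and S100a9 counts was 1.66 in Ctrl 1 and 1.27 in A5-CKO 2, and 0.0651 in Ctrl 2 and 0.196 in A5-CKO 1. The log2 fold changes between genotypes were -0.16 ± 0.48, -0.14 ± 0.49 and 0.83 ± 0.58, and none passed the test.

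Lymphocyte genes were low and varied little. Cd3e, a chain of the T cell receptor complex, had 7.86, 6.34, 6.88 and 4.02 normalized counts. Cd79a, the signalling chain of the B cell receptor, had 16.7, 12.4, 9.64 and 10.04, lower in both A5-CKO libraries, with a log2 fold change of -0.56 ± 0.41 (adjusted p = 0.641 in edgeR). Neither gene had A5-CKO 2 as its highest library.

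Between A5-CKO and Ctrl, 0 of the 37 members tested had an adjusted p under 0.05 in edgeR, as did 0% of all 16661 genes, and the smallest adjusted p was 0.528. At an unadjusted p under 0.05 there was 1 member, Ptprc, higher in A5-CKO, where 9.18% of all genes passed this threshold, 4.48% higher and 4.71% lower. DESeq2 called 0 of the 38 members to which it gave an adjusted p, and 0.385% of all genes. Both A5-CKO libraries lay above both Ctrl libraries in 1 of the 37 members (20.3% of all genes) and below in 3, namely Siglecf, Apoe and Cd79a (23.5%), so that separation by genotype was less frequent than over all genes, a difference that was not tested. With total counts in place of TMM factors, 0 members lay below. The median log2 fold change was -0.08, with 17 members higher and 20 lower, against -0.02 over all genes.

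The direction of the genotype difference depended on single libraries for most members. Without Ctrl 1 the median over the members in the fit was 1.23, and without A5-CKO 2 it was -1.47. Spp1 went from -1.999 without A5-CKO 2 to 4.94 without Ctrl 1, and C1qa from -2.86 to 3.68 under the same omissions. Over all genes the median stayed between -0.08 and 0.11 in these fits. Ptprc, Siglecf, Apoe, Cd3e, Cd79a and Csf3r kept their direction with each library left out, and the other 31 members tested did not. With 2 libraries in each group, an exact permutation test cannot give a two-sided p below 0.333.

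**Figure D3:**
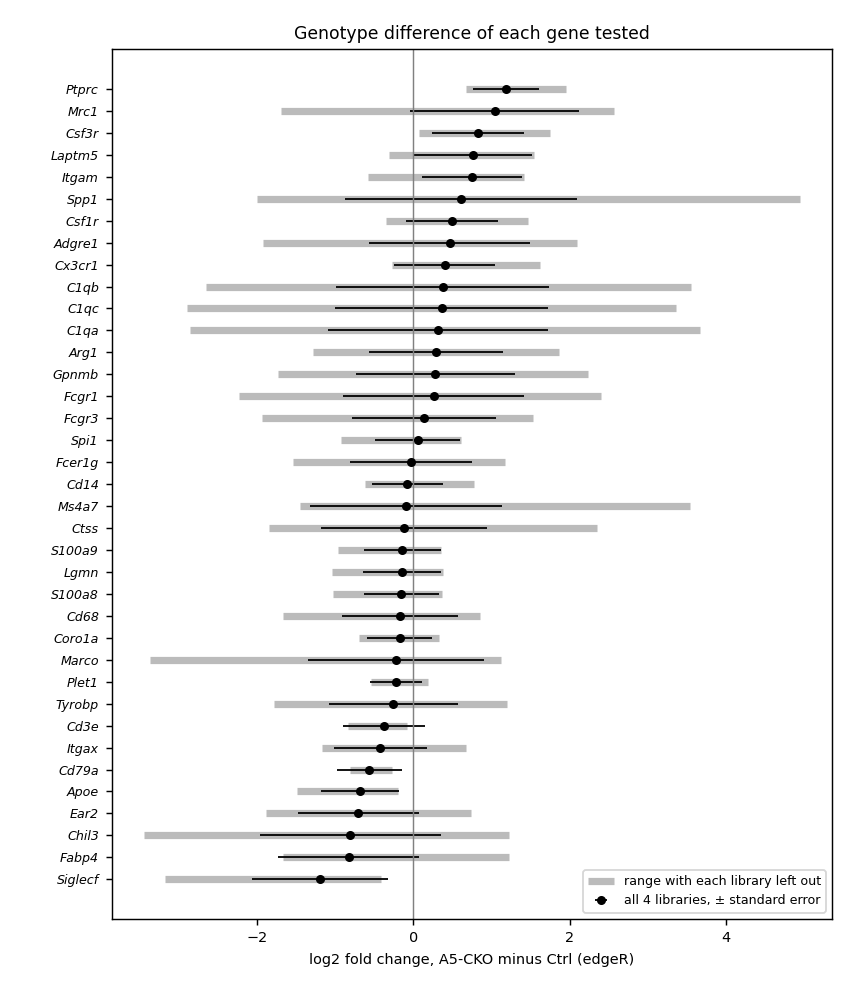
Log2 fold change (A5-CKO over Ctrl) from edgeR (points, with bars of 1 standard error) for the 37 members tested, and in grey the range over the 4 fits that each left out 1 library. The grey ranges cross 0 for 31 members, a count not made over all genes, and that of Ptprc runs from 0.67 to 1.95.

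Other leukocyte genes, from lists that hold no member, showed which cell types shared the order. Of 20 further phagocyte genes, 19 could be tested, and 18 of these were highest in Ctrl 1 and A5-CKO 2 (15.6% of all genes). Their sum was 1274, 419, 482 and 1522 normalized counts. Msr1, the macrophage scavenger receptor, had 35.0, 1.16, 2.63 and 54.2, and Mpeg1, a pore-forming protein of phagocytes, had 354, 107, 107 and 351. The remaining gene, Aif1, was listed at 0 in all 4 libraries, whereas Csf1r and Adgre1 had at least 593 and 148 counts in each library. Of these 19 genes, 0 were called by edgeR, 0 had an unadjusted p under 0.05 and the median log2 fold change was 0.38.

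Further leukocyte genes, not specific to phagocytes, had a sum of 1261, 990, 832 and 1316, and 9 of 14 had the shared order. Lcp1, an actin-bundling protein and the highest gene of the list, had 476, 522, 369 and 469, and the sum without it, taken after its values were seen, was 785, 468, 463 and 847. Cd52, Cd53 and Itgb2 had both ratios between libraries above 2. Here 4 of 14 were higher in both A5-CKO libraries, namely Fyb, Ikzf1, Cytip and Dock2 (20.3% of all genes). Fyb, an adaptor of T cells and myeloid cells, had 14.2, 13.4, 32.4 and 27.6, and as for Ptprc, A5-CKO 1 was not low. Of the 14, 0 were called by edgeR and 1, Fyb, had an unadjusted p under 0.05.

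Interstitial macrophage genes were mostly at few counts, and 7 of 10 could be tested. Stab1, a scavenger receptor, had 30.7, 11.2, 8.38 and 59.8, and F13a1, coagulation factor XIII, had 21.2, 4.89, 5.43 and 61.6, both highest in A5-CKO 2. Of the 7, 0 were called by edgeR and 1, Cbr2, had an unadjusted p under 0.05 and was called by DESeq2 (adjusted p = 0.0186), and 5 had the shared order. Cbr2, a carbonyl reductase also known from the lung epithelium, held nearly all of the list's sum, with 4681, 6611, 2084 and 1239, and ran against the order of the other genes. Among 10 further alveolar macrophage genes, the log2 fold change with TMM scaling was negative in all 10, and 5 lay lower in both A5-CKO libraries (23.5% of all genes). Krt79 had 6.39, 5.53, 0.543 and 1.37 and was the single gene of this list with an unadjusted p under 0.05. Cd9 and Cd36 made up most of this list's sum, and both are also made by epithelial or endothelial cells.

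Neutrophil genes followed the granulocyte members. Their 9 genes summed to 116, 327, 102 and 346 normalized counts, and 0 of 9 had Ctrl 1 and A5-CKO 2 as the highest pair. Retnlg, a resistin-like protein of neutrophils, had 28.4, 57.2, 16.5 and 76.3. Il1r2, a decoy receptor for interleukin-1, was the single one of the 9 with an unadjusted p under 0.05 and was higher in both A5-CKO libraries, at 5.14, 6.69, 14.6 and 45.9, a difference that DESeq2 called (adjusted p = 0.0264). T and NK cell genes were low and summed to 65.6, 51.5, 66.6 and 25.6. Of the 11 tested, 0 were highest in A5-CKO 2 (20.2% of all genes). Dendritic cell genes summed to 19.8, 13.8, 37.7 and 20.4, highest in A5-CKO 1. Most of that lead came from Ccr7, with 5.09, 5.59, 22.1 and 7.91, and 4 of the 7 genes were highest in A5-CKO 1 (27.8% of all genes). Mast cell and basophil genes were at a summed level of 0.524 to 0.951, and none could be tested. B and plasma cell genes summed to 824, 152, 209 and 791, most of it Jchain, the joining chain of secreted antibodies, with 622, 69.6, 136 and 634. Cd79b, a B cell receptor gene in the same list, had 61.5, 50.9, 34.2 and 18.5 and did not share the order of the macrophage genes, as Jchain did. The other genes did not divide by cell type. The B cell gene Cd22 had the shared order, at 12.4, 7.10, 7.02 and 11.6, and Pou2af1 did not, at 5.32, 7.27, 3.76 and 21.4. In all, 4 of the 8 genes had it (15.6% of all genes).

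Markers outside the leukocytes moved with the macrophage genes in part. The 7 fibroblast genes summed to 398, 149, 96.2 and 1025 normalized counts, and 6 of 7 were highest in Ctrl 1 and A5-CKO 2. Col1a1, the main chain of type I collagen, had 147, 32.5, 21.3 and 386. The 8 endothelial genes summed to 134, 192, 122 and 179, with Cldn5 at 0, and red blood cell genes to 14.6, 3.32, 2.76 and 6.45. The 12 AT2 genes summed to 58160, 84430, 43234 and 35706, lowest in A5-CKO 2 and highest in Ctrl 2, and 8 of the 12 were lower in both A5-CKO libraries (23.5% of all genes), with Sftpb counted mostly on a genome patch copy that is not in this sum. The 6 AT1 genes summed to 1207, 1071, 791 and 915, most of it Aqp5, with 981, 951, 479 and 636. Ager had 2, 6, 2 and 4 counts and Pdpn 3, 0, 17 and 3, and neither could be tested. Of the 4 AT1 genes tested, 3 had a positive log2 fold change (49.1% of all genes) and Aqp5 a negative one. Hopx and Cav1 were higher in both A5-CKO libraries (20.3% of all genes). In each of these lists 0 genes were called by edgeR, and those with an unadjusted p under 0.05 were the AT2 genes Sftpb, Napsa and Cebpa, the B cell gene Cd79b, the neutrophil gene Il1r2 and the dendritic cell gene Ccr7. DESeq2 called Cebpa, with an adjusted p of 0.0297, in addition to Il1r2. The part of these cell types in the order of the macrophage genes was not tested.

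**Figure D4:**
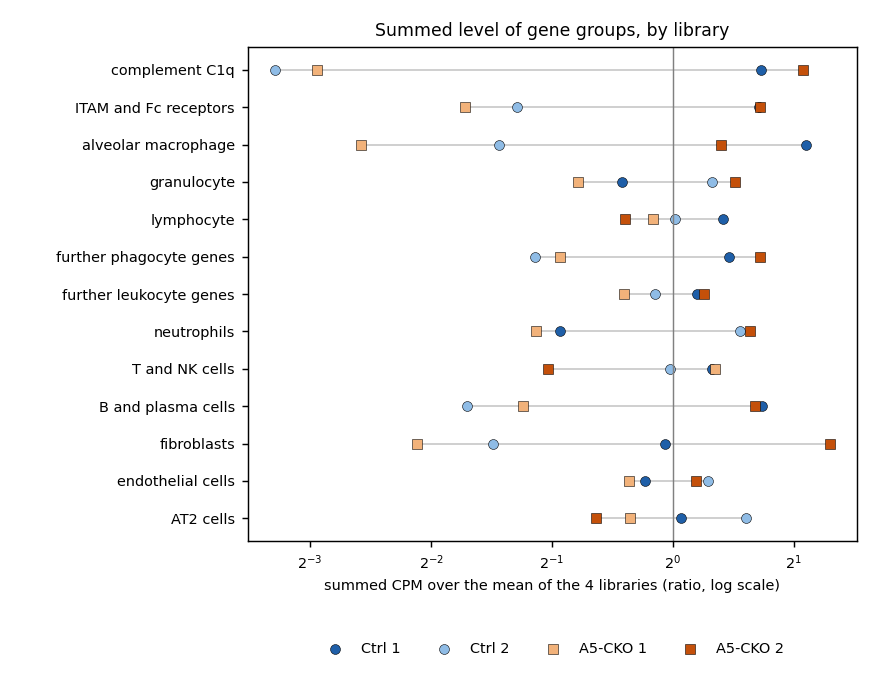
Summed normalized counts of 13 gene groups in each library, divided by the mean of the 4 libraries (log scale). C1q, the Fc receptor group, phagocyte, B and plasma cell and fibroblast genes place Ctrl 1 and A5-CKO 2 to the right of the others. Neutrophil genes place Ctrl 2 and A5-CKO 2 there, and AT2 genes place Ctrl 2 there.

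Ligands that act on receptors of macrophages and granulocytes were listed as a counterpart to the members, and AT2 cells are known to make some of them. Csf2, the growth factor GM-CSF on which alveolar macrophages depend, had 42.2, 28.3, 16.3 and 13.2 normalized counts. Il34, a ligand of Csf1r, had 107, 82.3, 54.5 and 44.4, and Csf1, the other ligand, had 46.0, 37.1, 16.3 and 32.4. Cx3cl1, the ligand of Cx3cr1, had 67.8, 52.0, 50.3 and 43.5. All 4 were lower in both A5-CKO libraries, and they were the only 4 of the 12 ligands to separate (23.5% of all genes). The log2 fold change was -1.26 ± 0.37 for Csf2 and -0.93 ± 0.30 for Il34, the 2 ligands with an unadjusted p under 0.05, and neither passed the adjusted threshold in edgeR. The receptor genes Csf1r and Cx3cr1, given above, overlapped between the genotypes. Ccl2, a chemokine that recruits monocytes, had 11.5, 0.524, 1.22 and 26.2 and followed the order of the macrophage genes.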

How the data were processed

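The deposited table holds raw read counts per gene for 4 libraries, 2 Ctrl and 2 A5-CKO, as the authors made them. RNA was extracted with Trizol and prepared with a SMARTER mRNA-Seq kit. The submitters' processing notes name Trim Galore 0.6.10, HISAT2 2.2.1, featureCounts 2.0.3 and the mouse build mm10. The strand setting of the counting was not given in the sources used here, so that reads of overlapping genes could not be told apart. Besides Cd163 and Plet1, this concerned Arg1, whose overlapping gene Gm40616 had 149, 33, 82 and 238 counts. It also concerned Csf1r, where Gm52352 had 52, 13, 63 and 78, and, at fewer counts of the overlapping gene, Cx3cr1 and Csf3r.

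Genes were tested with edgeR 4.0.16 in R 4.3.3 (TMM scaling, filterByExpr, quasi-likelihood test, A5-CKO minus Ctrl without covariates), with Benjamini-Hochberg adjustment over the 16661 genes that passed, of 40092, and a threshold of 0.05. The fit was tested on simulated data. A log2 fold change is given with its standard error. Totals of 18144865 to 20811757 counts put 3 counts, taken as the floor, at 0.128 to 0.177 CPM. Alternatives were DESeq2 1.42.0, other scaling and filters, a replicate block and leaving out each library.

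The members and gene lists were chosen with earlier results of these data known. All 39 members are accounted for. Full values were given for the highest member of each role, members that separated by genotype or had an unadjusted p under 0.05, and Ptprc, Csf1r, Adgre1 and Spi1. Other named genes, the order of libraries, the ratio limits of 2 and 4 and the promoter motifs were chosen after values were seen. Gene coordinates are from RefSeq (GRCm38.p6), and transcript lengths from GENCODE M21.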

Additional observations from a re-analysis of the deposited data

How the results depend on the processing

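Of 37 members tested, 31 turned direction in at least 1 fit that left out a library, and 14 in at least 1 other fit. The same counts were not made over all genes. With each library left out in turn, the log2 fold change ranged for Coro1a from -0.70 to 0.33, Laptm5 from -0.31 to 1.55, Spi1 from -0.93 to 0.62, Tyrobp from -1.79 to 1.20, Fcer1g from -1.55 to 1.17, Fcgr1 from -2.24 to 2.41, Fcgr3 from -1.94 to 1.53 and C1qa from -2.86 to 3.68. It ranged for C1qb from -2.66 to 3.55, C1qc from -2.90 to 3.36, Csf1r from -0.35 to 1.47, Cd68 from -1.66 to 0.86, Mrc1 from -1.69 to 2.57, Adgre1 from -1.92 to 2.10, Ms4a7 from -1.45 to 3.55 and Cd14 from -0.63 to 0.78. Further ranges were, for Cx3cr1 from -0.27 to 1.62, Itgam from -0.59 to 1.41, Itgax from -1.18 to 0.68, Ctss from -1.85 to 2.35, Lgmn from -1.05 to 0.38, Marco from -3.38 to 1.12, Chil3 from -3.45 to 1.23 and Ear2 from -1.89 to 0.74. The remaining ranges were, for Plet1 from -0.54 to 0.18, Fabp4 from -1.67 to 1.23, Spp1 from -1.999 to 4.94, Gpnmb from -1.74 to 2.23, Arg1 from -1.29 to 1.87, S100a8 from -1.03 to 0.36 and S100a9 from -0.97 to 0.35. The median over the members in these fits ran from -1.47 without A5-CKO 2 to 1.23 without Ctrl 1, and the number with an unadjusted p under 0.05 ran from 1 to 4 (3 without Ctrl 1, 3 without A5-CKO 1 and 4 without A5-CKO 2). The lone library of a group was assumed to vary like the other group. With total counts in place of scaling factors, the median of all genes moved from -0.02 to 0.30, 29 members were higher and 8 lower against 17 and 20, no member was lower in both A5-CKO libraries (0 against 3), and the values that turned were Coro1a 0.13, Tyrobp 0.031, Fcer1g 0.26, Cd68 0.12, Ms4a7 0.17, Cd14 0.22, Ctss 0.16, Lgmn 0.16, Marco 0.0732, Plet1 0.0821, S100a8 0.18, S100a9 0.19. Fcer1g, close to 0, also turned to 0.0152 with DESeq2's size factors in edgeR, 0.00937 with at least 10 counts required in every library and 0.00244 in DESeq2. DESeq2 put 2 members under an unadjusted p of 0.05, against 6.75% of all genes in its fit.

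The labels number the libraries of both groups 1 and 2 but do not tie the numbers to litters, batches or days, and same-numbered libraries deviated in opposite directions (correlation -0.35 over genes). With the replicate block, edgeR called 0 genes, and 754 (4.53% of all genes) had an unadjusted p under 0.05, against 1530 (9.18%) without it. Of the 37 members, 2 were among the 754. The values that turned were Spi1 -0.0784, Fcgr3 -0.16, Ms4a7 0.78, Cd14 0.0631, Ctss 0.17. With the numbers crossed, so that Ctrl 1 stood with A5-CKO 2 and Ctrl 2 with A5-CKO 1, edgeR called 230 of 16661 genes, 2 of them members. An unadjusted p under 0.05 was found for 7 of the 37 members and for 15.5% of all genes. This pairing was chosen after seeing the data and repeats the order shared by most members. Smaller p values for members with that order follow from the choice. With 2 libraries in a group, differences between genotypes could be missed, and the smallest difference that could be detected was not estimated.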
